A study of Mus musculus with 11 samples.

Results

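The annexin family was compared between livers in which the microRNA (miRNA) cluster *miR-379/miR-410* was targeted and control livers. The members were the 8 rows of the count table with the symbol *Anxa1*, *Anxa2*, *Anxa3*, *Anxa4*, *Anxa5*, *Anxa6*, *Anxa7* or *Anxa11*, of 13669 genes in all. The family was chosen on the readout of this same comparison, in which *Anxa5* had rank 8 by p value among the 966 genes called higher. The difference of *Anxa5* is therefore given as a description without a test, and the other 7 members were taken by name.

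The RNA was from whole liver of wild-type male C57BL/6J mice, obtained young and kept on regular chow, injected through the tail vein with a recombinant adeno-associated virus (rAAV) of serotype 8. In 6 mice (AAV-TuD, replicates 3, 4, 5, 9, 10 and 11) the virus expressed a tough decoy (TuD), an RNA that binds *miR-379* and *miR-541* and so takes these miRNAs away from their targets. In 5 mice (AAV-NC, replicates 1, 2, 6, 7 and 8) it expressed a negative control sequence, so that both groups carried a virus and no uninjected mice were included. The vector used the liver-specific LP1 promoter, whereas the RNA came from all cells of the liver. The strain and diet are those of the paper's general methods and are not given in the sample labels. The methods also state that mice given these viruses were fasted for some hours before they were killed. The age at killing and the time after the rAAV are not given for each of these livers in the sources used here.

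Annexins are proteins that bind the phosphatidylserine-rich inner face of cell membranes when calcium rises. Through this binding they take part in membrane repair, vesicle traffic and the link between membranes and the actin cytoskeleton, and annexin A5 is widely used to stain dying cells that expose phosphatidylserine. In liver, *Anxa6* is abundant in hepatocytes, whereas annexins A1, A2, A3 and A5 are known from bile duct, stromal, endothelial and immune cells and from injured or dividing hepatocytes.

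Each liver gave 8148531 to 12043959 reads on genes. The livers differed in the share of reads from the major urinary protein (*Mup*) genes, which was 38.6% in AAV-NC liver 7, 30.9% and 28.4% in AAV-TuD livers 3 and 5, and at most 18.7% in the others. Levels are therefore given as CPM, read counts relative to library size, after TMM scaling, a method that sets libraries to a common level by the bulk of their genes. A level of 1 CPM stood for 7.94 to 12.4 reads. The libraries were made from the 3′ ends of transcripts, so that a transcript gives reads whatever its length, and levels of different annexins were compared without division by length. The hepatocyte marker *Alb*, which encodes albumin, stood at 21096 ± 2304 CPM (SD, n = 5) in AAV-NC livers and at 28044 ± 2727 (SD, n = 6) in AAV-TuD livers. Of the transcripts from the locus of the miRNA cluster, *Meg3* had 16.1 ± 11.9 CPM (SD, n = 5) in AAV-NC livers and 8.63 ± 1.98 (SD, n = 6) in AAV-TuD livers. Its log2 fold change of -0.89 did not pass the test (adjusted p = 0.108 in edgeR), nor did that of *Rian*, -0.53 (adjusted p = 0.472 in edgeR). The paper places both upstream of the cluster and treats the cluster as controlled independently of them. By PCR, the paper reports that the decoy lowered *miR-379*, *miR-541* and the host transcripts *lncMGC* and *Mirg* in liver. The targeted miRNAs themselves were not analysed here.

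The miRNAs bound by the decoy are shown because direct targets of a miRNA usually carry a match to its seed, bases 2 to 8 from the 5′ end. They lie on the plus strand of chr12, *miR-379-5p* at chr12:109709065-109709085 and *miR-541-5p* at chr12:109742422-109742446 (RefSeq, GRCm38.p6), and the seed is in capitals.
miR-379-5p: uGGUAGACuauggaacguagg
miR-541-5p: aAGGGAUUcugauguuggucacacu
The longest annotated 3′ untranslated regions (UTRs) of the 8 annexins, which were between 290 bases in *Anxa2* and 1972 bases in *Anxa4*, held 0 matches to either of these seeds. In the 10935 genes tested that have an annotated 3′ UTR, 5.72% held a match to *miR-379-5p* (GTCTACC) and 9.51% to *miR-541-5p* (AATCCCT). The other 4 miRNAs of the cluster that were searched, *miR-382-5p*, *miR-134-5p*, *miR-409-3p* and *miR-410-3p*, also had 0 matches in the 8 members. With the shorter match to bases 2 to 7, a site for *miR-379-5p* or *miR-541-5p* was found in 4 of the 8 members, *Anxa2*, *Anxa4*, *Anxa6* and *Anxa7*, and in neither *Anxa3* nor *Anxa5*. This shorter match is common, with 28.0% of the 10935 genes holding it for *miR-379-5p* and 33.4% for *miR-541-5p*. These shares are for each miRNA alone. The share of genes with a match to either was not computed, so the 4 of 8 members cannot be compared with it. The absence of these letters says only that they are not in these UTRs.

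The promoters of *Anxa5*, *Anxa2* and *Anxa11* are shown because the level of the first pair was higher with AAV-TuD and that of the last was not. Each sequence gives the 250 bases before the RefSeq transcription start (GRCm38.p6), 5′ to 3′ on the strand of the gene, at chr3:36475888-36476137 on the minus strand for *Anxa5*, chr9:69453433-69453682 on the plus strand for *Anxa2* and chr14:25841905-25842154 on the plus strand for *Anxa11*. Capitals mark the motifs searched, on both strands. These were the GC box (GGGCGG), the AP-1 element (TGANTCA), the TEAD element (GGAATG) and the TATA box, whose letters were TATAAA. The CCAAT box was searched by the letters of its name.
Anxa5: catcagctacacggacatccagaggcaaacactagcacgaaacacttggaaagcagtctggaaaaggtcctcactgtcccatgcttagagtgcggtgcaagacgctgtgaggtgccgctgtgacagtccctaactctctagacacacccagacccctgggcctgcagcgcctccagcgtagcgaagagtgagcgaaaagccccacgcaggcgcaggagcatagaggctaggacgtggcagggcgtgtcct
Anxa2: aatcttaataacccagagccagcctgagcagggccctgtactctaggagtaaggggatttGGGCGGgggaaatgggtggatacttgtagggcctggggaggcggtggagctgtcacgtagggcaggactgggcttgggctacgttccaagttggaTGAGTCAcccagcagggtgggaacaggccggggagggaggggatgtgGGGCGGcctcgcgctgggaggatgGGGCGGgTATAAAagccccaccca
Anxa11: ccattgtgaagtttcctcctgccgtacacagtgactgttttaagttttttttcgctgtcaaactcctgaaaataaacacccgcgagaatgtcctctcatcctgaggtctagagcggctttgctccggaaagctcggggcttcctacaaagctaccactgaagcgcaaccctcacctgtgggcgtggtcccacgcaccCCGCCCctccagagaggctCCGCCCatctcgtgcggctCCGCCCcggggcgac
The *Anxa5* window held none of the 5 motifs, had 58.8% G and C and contained 13 CpG pairs. The *Anxa2* window held 3 GC boxes, 190, 48 and 24 bases before the start, an AP-1 element 95 bases before it and a TATA box 17 bases before it. *Anxa11* had 3 GC boxes, 53, 34 and 15 bases before the start. *Anxa1*, which was higher by a similar amount but did not pass the test, had a TEAD element 236 bases and a TATA box 32 bases before its start. These starts are those of RefSeq, and the gene spans given below come from another annotation. The *Anxa1* window lies wholly inside its gene span. In *Anxa2*, the TATA box and the GC boxes 48 and 24 bases before the RefSeq start lie inside the gene span. Across 27025 mouse promoter windows of the same length, 32.9% held a GC box, 34.5% a CCAAT box, 6.87% the AP-1 element, 12.6% the TEAD element and 13.0% the TATA box. No motif searched was found in both *Anxa5* and *Anxa2*. A motif match is a description of letters and was not tested against the expression values.

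In the AAV-NC livers, the annexin transcripts spanned a wide range of levels in CPM. *Anxa6* was the most abundant member, at 104 to 115 CPM. *Anxa5* followed with 20.9 to 28.6 CPM and *Anxa7* with 17.2 to 21.8, and the livers of these neighbours overlapped. *Anxa4*, at 11.6 to 14.2 CPM, and *Anxa11*, at 9.15 to 14.6, could not be ordered beyond their spread. *Anxa2* lay below them at 3.88 to 7.97 CPM, with no overlap with *Anxa11*. *Anxa3* had 1.43 to 2.43 CPM and *Anxa1* 0.125 to 1.64, and these lowest members overlapped. Within each AAV-NC liver, as within each AAV-TuD liver, *Anxa5* lay above *Anxa7* and *Anxa3* above *Anxa1*. In the AAV-TuD livers the overlap of these ranges differed in 3 places. *Anxa5*, at 43.3 to 57.9 CPM, lay above *Anxa7*, at 17.6 to 24.9, without overlap. *Anxa2*, at 9.56 to 19.7 CPM, overlapped with *Anxa4*, *Anxa11* and the lower livers of *Anxa7*. *Anxa3*, at 2.12 to 5.43 CPM, lay above *Anxa1*, at 0.657 to 1.46, without overlap.

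Of the 8 annexins, 3 were called higher and 0 lower with AAV-TuD at an adjusted p under 0.05 in edgeR, against 7.24% of the 13334 genes tested called higher and 4.33% called lower. All 8 members entered the test. Without *Anxa5*, on which the family was picked, 2 of the other 7 were called higher (28.6%), namely *Anxa2* and *Anxa3*. The members fell apart in the size of the difference. The log2 fold changes of *Anxa1*, *Anxa2*, *Anxa3* and *Anxa5* were between 0.96 and 1.18, and those of *Anxa4*, *Anxa6*, *Anxa7* and *Anxa11* between 0.01 and 0.06. The median over the 8 members, 0.51, fell in the empty range between these sets, that of the other 7 members was 0.06, and that of all genes tested was -0.00. All AAV-TuD livers exceeded all AAV-NC livers for *Anxa5*, on which the family was picked, and for 1 of the other 7 members, *Anxa2*, against 4.11% of all genes tested.

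**Figure D1:**
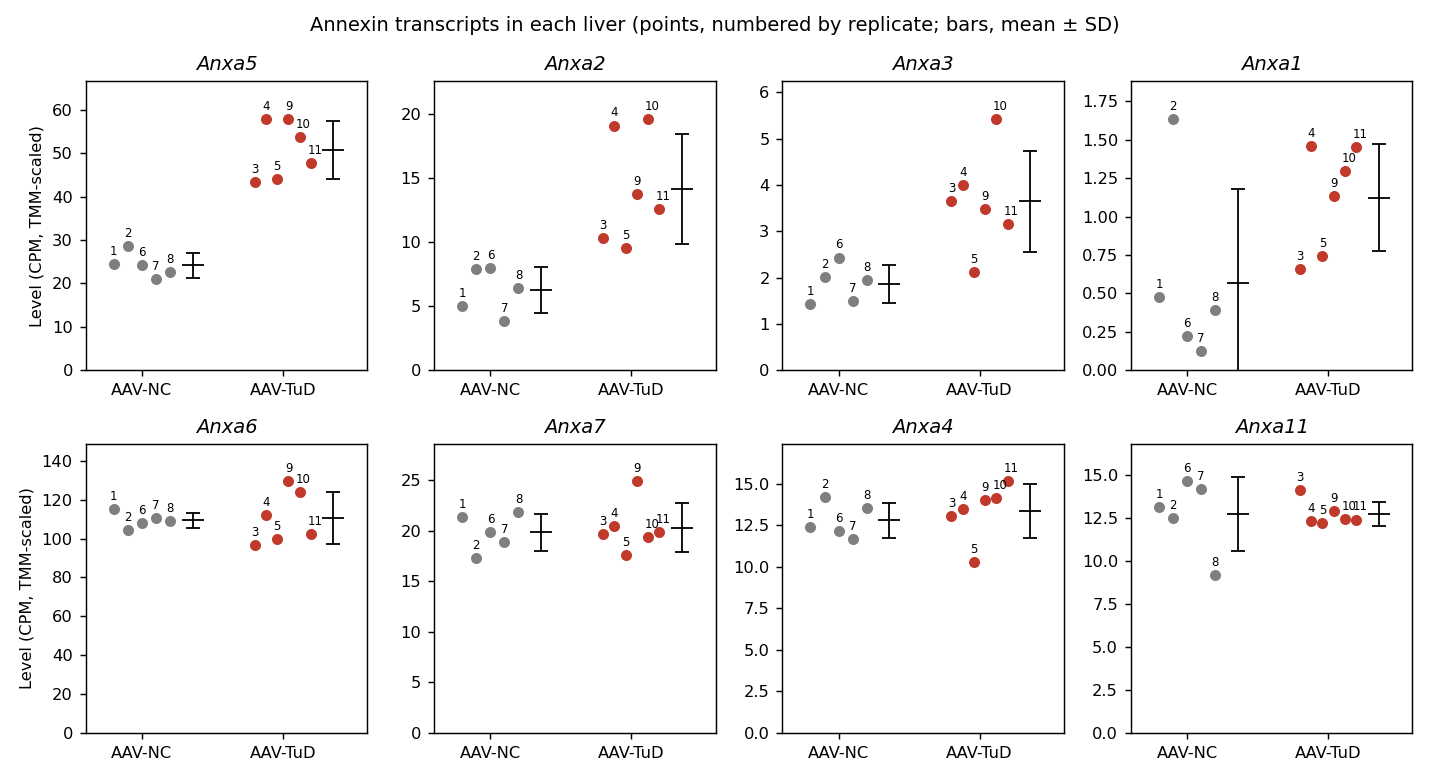
Level of each annexin in CPM (TMM-scaled, vertical axis from 0) in the 5 AAV-NC livers (grey) and the 6 AAV-TuD livers (red), numbered by replicate, with the mean and SD beside the points. The groups do not overlap for *Anxa5* and *Anxa2*, 5 of 6 AAV-TuD livers lie above all AAV-NC livers for *Anxa3*, and the groups overlap for the other 5 members. The lower SD bar of *Anxa1* in AAV-NC ends at the axis.

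*Anxa5* (ENSMUSG00000027712, GRCm38 chr3:36448923-36475894, minus strand) encodes the annexin that forms a lattice on exposed phosphatidylserine. Its level in the AAV-NC livers was 24.5 CPM in replicate 1, 28.6 in replicate 2, 24.3 in replicate 6, 20.9 in replicate 7 and 22.7 in replicate 8. In the AAV-TuD livers it was 43.3 CPM in replicate 3, 57.9 in replicate 4, 44.0 in replicate 5, 57.9 in replicate 9, 53.6 in replicate 10 and 47.7 in replicate 11. The lowest AAV-TuD liver was well above the highest AAV-NC liver. The means were 24.2 ± 2.85 CPM (SD, n = 5) and 50.7 ± 6.66 (SD, n = 6), a log2 fold change of 1.07 (standard error 0.10) or 2.10-fold. These values rest on 4458 reads over the 11 livers.

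*Anxa2* (ENSMUSG00000032231, chr9:69453620-69491795, plus strand) encodes the annexin that pairs with S100A10 at the plasma membrane and serves there as a receptor complex for plasminogen. Its level was 5.01 CPM in AAV-NC replicate 1, 7.93 in replicate 2, 7.97 in replicate 6, 3.88 in replicate 7 and 6.42 in replicate 8. With AAV-TuD it was 10.3 CPM in replicate 3, 19.1 in replicate 4, 9.56 in replicate 5, 13.8 in replicate 9, 19.7 in replicate 10 and 12.6 in replicate 11. The groups did not overlap, and the AAV-TuD livers 4 and 10 stood above the other 4 of their group. The transcript rose from 6.24 ± 1.80 CPM (SD, n = 5) to 14.2 ± 4.32 (SD, n = 6), a log2 fold change of 1.18 (95% interval 0.71 to 1.65, adjusted p = 0.00384 in edgeR).

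*Anxa3* (ENSMUSG00000029484, chr5:96793339-96845966, plus strand) encodes an annexin best known from neutrophil granules. Its level with AAV-NC was 1.43 CPM in replicate 1, 2.01 in replicate 2, 2.43 in replicate 6, 1.5 in replicate 7 and 1.95 in replicate 8. With AAV-TuD it was 3.66 CPM in replicate 3, 4.01 in replicate 4, 2.12 in replicate 5, 3.48 in replicate 9, 5.43 in replicate 10 and 3.16 in replicate 11. AAV-TuD liver 5 fell within the AAV-NC range, and the other 5 lay above it. *Anxa3* rose from 1.87 ± 0.410 CPM (SD, n = 5) to 3.65 ± 1.09 (SD, n = 6), a log2 fold change of 0.96 (95% interval 0.45 to 1.47, adjusted p = 0.0168 in edgeR). It had 328 reads in all, so that counting error is a larger part of its spread than for *Anxa5*.

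*Anxa1* (ENSMUSG00000024659, chr19:20373428-20390944, minus strand) encodes a glucocorticoid-induced protein that acts on formyl peptide receptors in the resolution of inflammation. It had the fewest reads of the members, 100 over the 11 livers. The AAV-NC livers had 4 reads in replicate 1, 13 in replicate 2, 2 in replicate 6, 1 in replicate 7 and 4 in replicate 8. The AAV-TuD livers had 7 reads in replicate 3, 16 in replicate 4, 7 in replicate 5, 14 in replicate 9, 15 in replicate 10 and 17 in replicate 11. AAV-NC liver 2 had the highest level of all, 1.64 CPM, and 0 AAV-TuD livers lay above it. The means were 0.570 ± 0.612 CPM (SD, n = 5) and 1.12 ± 0.350 (SD, n = 6), and the log2 fold change of 1.01 (95% interval 0.03 to 2.0) did not pass the test (adjusted p = 0.179 in edgeR). The estimate is of the size of that of *Anxa2*, with an interval that is about as wide as the estimate on either side. *Anxa1* exceeded 10 reads in 1 AAV-NC liver and 4 AAV-TuD livers, which is the least that the filter on low counts admits.

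The other 4 annexins had levels that differed little between the groups. *Anxa6* (ENSMUSG00000018340, chr11:54979108-55033445, minus strand), which encodes a large annexin of endosomes and cholesterol traffic, had 109 ± 3.94 CPM (SD, n = 5) in AAV-NC livers and 111 ± 13.5 (SD, n = 6) in AAV-TuD livers. Its log2 fold change was 0.02 (adjusted p = 0.928 in edgeR), and the 95% interval of the fold change ran from 0.896 to 1.14. The AAV-TuD livers spread more widely than the AAV-NC livers, from 96.6 to 129 CPM against 104 to 115, with livers 9 and 10 above every AAV-NC liver and livers 3, 5 and 11 below every one.

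*Anxa7* (ENSMUSG00000021814, chr14:20455260-20480133, minus strand), whose product synexin takes part in membrane fusion, had 19.8 ± 1.86 CPM (SD, n = 5) in AAV-NC livers and 20.3 ± 2.43 (SD, n = 6) in AAV-TuD livers. Its fold change had a 95% interval of 0.885 to 1.18 (adjusted p = 0.879 in edgeR), and AAV-TuD liver 9 was the highest at 24.9 CPM. *Anxa4* (ENSMUSG00000029994, chr6:86736840-86793584, minus strand), an annexin of secretory epithelia, had 12.8 ± 1.05 CPM (SD, n = 5) and 13.4 ± 1.65 (SD, n = 6), with an interval of 0.894 to 1.22 (adjusted p = 0.760 in edgeR). *Anxa11* (ENSMUSG00000021866, chr14:25842156-25886804, plus strand), which encodes an annexin that tethers RNA granules to lysosomes, had 12.7 ± 2.16 CPM (SD, n = 5) and 12.7 ± 0.709 (SD, n = 6). Its interval was 0.848 to 1.19 (adjusted p = 0.982 in edgeR). The last 500 bases of its transcripts match *Gm2260* and *Gm2274* over 259 and 261 bases at 100% identity, and the antisense gene *Anxa11os* shares 113 exon bases with it. Other members also share exon bases with annotated neighbours, *Anxa3* 112 with *Gm42603* on the same strand, *Anxa2* 98 with the antisense gene *Gm16144* and *Anxa4* 75 with *Gm44036* on the opposite strand. Reads of these annexins, the called *Anxa2* and *Anxa3* included, may be split with, or joined by, those of the neighbours, and this was not tested. For these 4 members, a change of the size of that in *Anxa2* was outside the interval in each case.

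**Figure D2:**
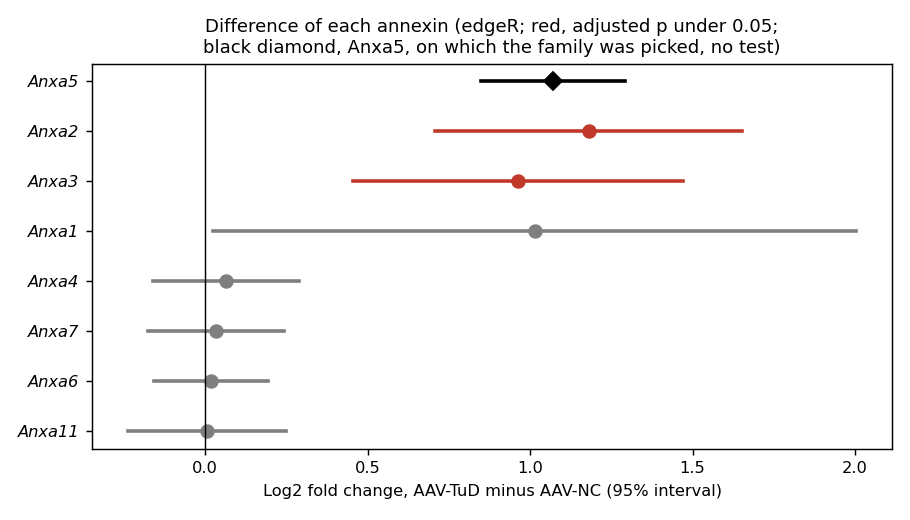
Log2 fold change of each annexin, AAV-TuD minus AAV-NC (horizontal axis), with the 95% interval of edgeR's fit as a line. *Anxa2* and *Anxa3* (red) passed the test at 1.18 and 0.96, *Anxa1* (grey) had the widest interval, 0.03 to 2.0, and *Anxa4*, *Anxa6*, *Anxa7* and *Anxa11* (grey) lay between 0.01 and 0.06. *Anxa5* (black diamond) is shown at 1.07 as a description.

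Of the 4 further mouse annexin genes looked for, *Anxa8* and *Anxa10* were not analysed here, and *Anxa9* and *Anxa13* were in the table at low levels. Neither exceeded 10 reads in any AAV-NC liver, so that they were tested only because of the AAV-TuD livers and had to differ. *Anxa13* (ENSMUSG00000055114, chr15:58341471-58389244, minus strand), whose protein is known from gut epithelium, had 0.284 ± 0.203 CPM (SD, n = 5) and 1.51 ± 0.699 (SD, n = 6). *Anxa9* (ENSMUSG00000015702, chr3:95296096-95307176, minus strand) had 0.611 ± 0.147 CPM (SD, n = 5) in AAV-NC livers and 1.44 ± 0.371 (SD, n = 6) in AAV-TuD livers. It shares 71 exon bases with *Mindy1* on the opposite strand and 94 with *6330562C20Rik* on the same strand. Its 3′ UTR, unlike those of the 8 members, held matches to bases 2 to 8 of *miR-409-3p*, from base 492 on, and *miR-541-5p*, from base 218 on. Each match was in 2 of its 3 annotated UTRs, and that to *miR-541-5p* is shown in capitals on the strand of the gene.
Anxa9 site: tctgccctgctcAATCCCTcctaaggc

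The sum of the 8 members was 182 to 193 CPM in the AAV-NC livers and 196 to 257 CPM in the AAV-TuD livers. This sum contains *Anxa5*, on which the family was picked. Without *Anxa5* the sum was 160 to 169 CPM in the AAV-NC livers and 152 to 199 in the AAV-TuD livers, and the groups overlapped. AAV-TuD livers 3 (158 CPM) and 5 (152 CPM) then lay below every AAV-NC liver, and livers 4, 9 and 10 above every one. *Anxa6* made up a median of 58.9% of the annexin reads with AAV-NC, between 55.3% and 60.9%, and of 48.8% with AAV-TuD, between 46.5% and 50.8%. *Anxa5* made up 12.7% with AAV-NC, between 11.5% and 15.2%, and 22.3% with AAV-TuD, between 21.5% and 24.1%. The share of *Anxa2* was 3.48% with AAV-NC and 5.60% with AAV-TuD. These shares are of levels within a liver, include *Anxa5* and move against each other by construction, so that the lower share of *Anxa6* goes with a log2 fold change of its level in CPM of 0.02.

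**Figure D3:**
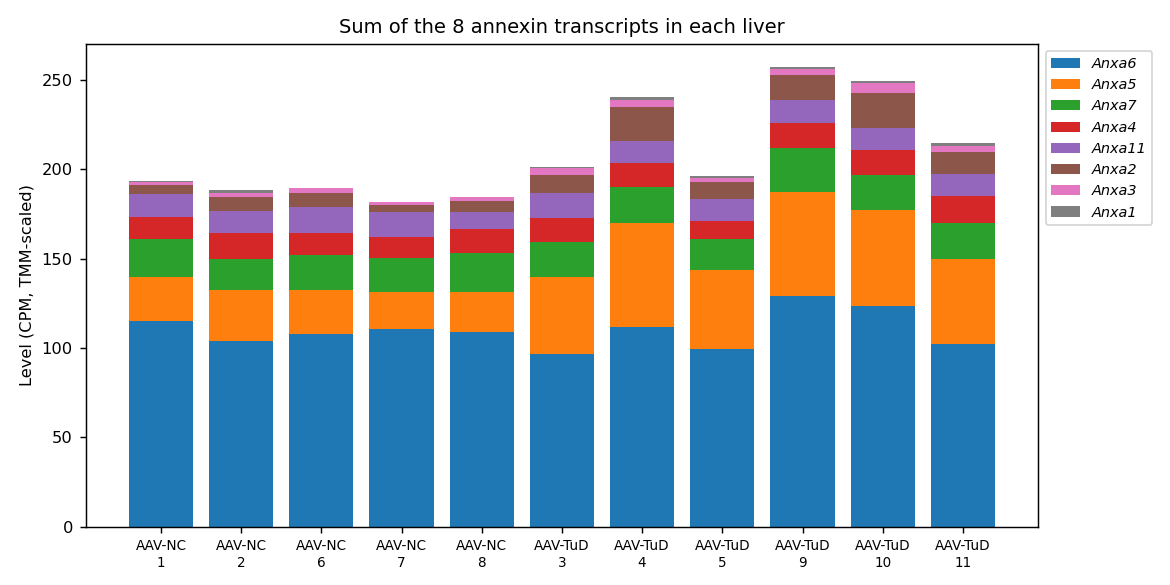
Summed level of the 8 annexins in CPM (TMM-scaled, vertical axis from 0) in each liver, with AAV-NC at left and AAV-TuD at right and colours for the members. The AAV-NC bars end between 182 and 193 CPM and the AAV-TuD bars between 196 and 257, and the *Anxa6* segment is the largest in every liver.

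The annexins differed in how they varied among the livers of a group. With the mean of each group removed, the log2 CPM of *Anxa2* correlated with that of *Anxa3* at r = 0.83 and with that of *Anxa5* at 0.79 across the 11 livers, and *Anxa1* with *Anxa5* at 0.76. The other pairs among these 4 members had lower values, 0.59 for *Anxa1* and *Anxa2*, 0.50 for *Anxa3* and *Anxa5*, and 0.25 for *Anxa1* and *Anxa3*. *Anxa4*, which did not pass the test, correlated with the same 4 members at 0.55 to 0.65, so that such values were not limited to the members with the larger differences. *Anxa6* and *Anxa7* had a correlation of 0.64 across the same livers. *Anxa11* did not follow any of the others, with values from -0.30 to 0.01. These correlations are descriptions, since all members of a liver share its library and its *Mup* share. *Anxa5* and *Anxa2* were lowest in AAV-TuD livers 3 and 5 and, among the controls, in AAV-NC liver 7, which are the 3 livers with the most *Mup* reads. Without these 3 livers the log2 fold change was 1.12 for *Anxa5*, 1.25 for *Anxa2* (adjusted p = 0.00146 in edgeR) and 1.03 for *Anxa3* (adjusted p = 0.0195 in edgeR), all larger than with them.

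Outside the family, among those with at least 50 reads on average, the genes whose pattern was most like that of *Anxa5*, by the correlation of log2 CPM with group means removed over the 11 livers, were *Dab2ip* (r = 0.91), *Rtn4* (0.89), *Setd2* (0.89), *Smoc2* (0.88) and *H2-Q1* (0.87), of 8366 genes searched. *Smoc2*, a matricellular protein gene, was also the gene most like *Anxa2* (r = 0.95), followed by the tropomyosin gene *Tpm1* (0.94). The likest genes were *Twf1* (0.92) and *Hs2st1* (0.92) for *Anxa3*, *Elovl5* (0.92) and *Med16* (0.90) for *Anxa1*, *Got2* (0.93) and *Kmt5b* (0.92) for *Anxa4*, *Tcf7l1* (0.94) and *Mpp1* (0.90) for *Anxa6*, *Por* (0.90) and *Tmem183a* (0.90) for *Anxa7*, and *Lpin1* (0.94) and *Trim7* (0.90) for *Anxa11*. With so many genes searched over 11 livers, high values arise for every member.

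Genes whose products bind annexins or act in the same processes were examined in lists. Of 60 such genes tested, 14 were higher (23.3%) and 0 lower with AAV-TuD at an adjusted p under 0.05 in edgeR. Of all genes tested, 7.24% were higher and 4.33% lower. The 14 include *Pla2g4a*, which passed the filter only through AAV-TuD livers. The median log2 fold change of the 60 genes was 0.15 against -0.00 for all genes. These lists, like the members, were chosen with results of these livers known.

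Of the S100 and other EF-hand proteins that pair with annexins, 2 of 7 were higher (28.6%). *S100a11*, the partner of annexins A1 and A2, had 4.18, 9.69, 6.20, 5.38 and 4.67 CPM in the AAV-NC livers 1, 2, 6, 7 and 8. In the AAV-TuD livers 3, 4, 5, 9, 10 and 11 it had 15.9, 20.8, 11.9, 19.1, 21.6 and 20.9 CPM. Every AAV-TuD liver lay above the controls, and liver 5 was the lowest of them. Liver 5 was also the lowest AAV-TuD liver for *Anxa2* and *Anxa3*, and for *Anxa4*, *Anxa7* and *Anxa11*, which were not called. *S100a11* rose from 6.02 ± 2.19 CPM (SD, n = 5) to 18.4 ± 3.78 (SD, n = 6), a log2 fold change of 1.62 (adjusted p = 0.000252 in edgeR), and *S100a6*, a calcium-binding partner of several annexins, by 1.16 (adjusted p = 0.00947 in edgeR). *S100a10*, which encodes the partner of annexin A2 in the plasminogen receptor and was named here after its values were seen, had 15.4 to 46.5 CPM with AAV-NC and 36.1 to 55.0 with AAV-TuD. AAV-NC livers 6 and 8 were the lowest and AAV-NC livers 2 and 7 fell among the AAV-TuD livers, and its log2 fold change of 0.68 did not pass the test (adjusted p = 0.0585 in edgeR). *S100a1*, the member of the list with the most reads, had a log2 fold change of -0.14 (adjusted p = 0.282 in edgeR).

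Of the scaffold and membrane repair genes, 5 of 18 were higher (27.8%), and the list median was 0.17. *Myof*, a ferlin of membrane repair, rose by 1.18 on the log2 scale, from 1.81 to 4.08 CPM (adjusted p = 0.00415 in edgeR). *Ehd4*, an endosomal ATPase gene, rose by 0.89 (adjusted p = 0.00348 in edgeR), and *Cavin1*, a coat protein of caveolae, by 0.62 (adjusted p = 0.0130 in edgeR). *Ahnak*, the giant scaffold protein that binds annexin A2 with S100A10, rose by 0.45, from 30.8 to 42.0 CPM (adjusted p = 0.0134 in edgeR). The fifth was *Ehd2*, a caveolar ATPase named after its values were seen, at 1.24 (adjusted p = 0.0162 in edgeR). *Chmp4b*, an ESCRT component with the most reads of the list, stood at 65.6 and 65.3 CPM.

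Of the 14 genes of phosphatidylserine binding and scrambling, 3 were higher (21.4%). *Mfge8*, a bridge between exposed phosphatidylserine and integrins, rose by 1.38, from 13.0 to 33.6 CPM (adjusted p = 0.00133 in edgeR). *Axl*, a receptor that reads phosphatidylserine through GAS6, rose by 1.23, from 4.88 to 11.5 CPM (adjusted p = 0.00147 in edgeR). *Pros1*, which encodes the bridging protein S, rose by 0.33 (adjusted p = 0.0386 in edgeR).

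The remaining lists held fewer called genes. In the plasminogen system, 1 of 4 genes was higher (25%), the plasminogen receptor *Plgrkt*, by 0.95 (adjusted p = 0.0156 in edgeR), while *Ctsb*, a lysosomal protease, stood at 182 and 186 CPM. In the annexin A1 axis, 1 of 6 was higher (16.7%), the phospholipase gene *Pla2g4a*, which passed the filter only through AAV-TuD livers and so had to differ. *Nr3c1*, the glucocorticoid receptor, had a log2 fold change of -0.16 (adjusted p = 0.207 in edgeR). Of the other partners, 2 of 11 were higher (18.2%), the galectin gene *Lgals3* by 1.36 (adjusted p = 0.0104 in edgeR) and the kinase gene *Prkca* by 0.66 (adjusted p = 0.0479 in edgeR), and *Actb* had a log2 fold change of 0.05 (adjusted p = 0.813 in edgeR).

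**Figure D4:**
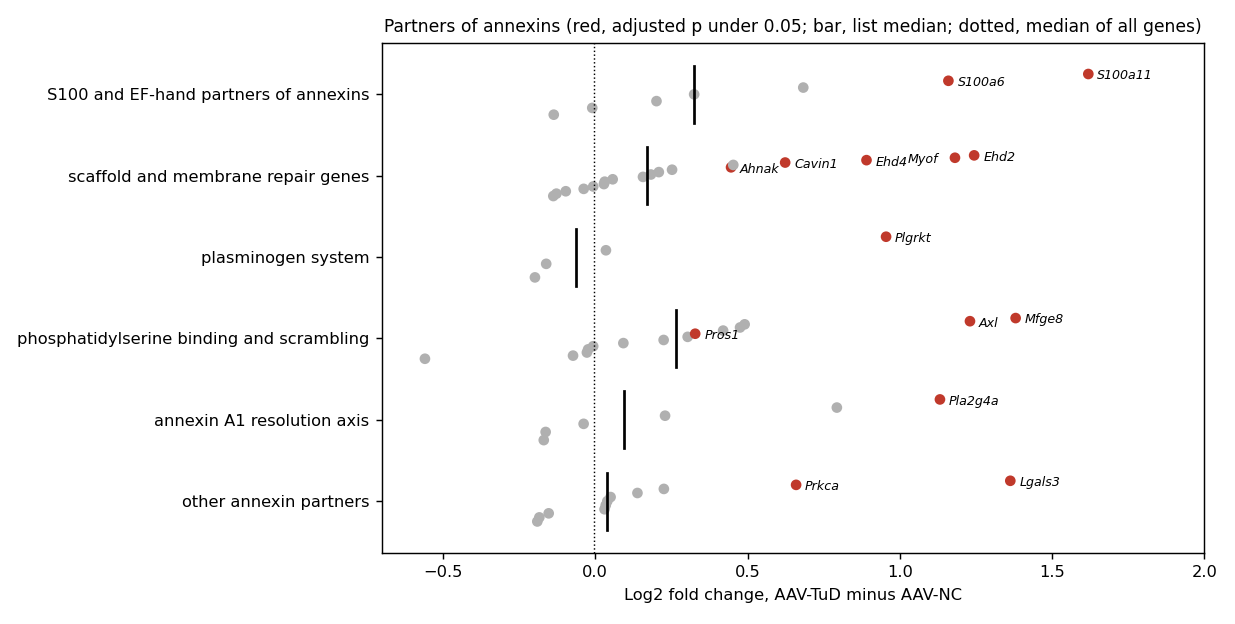
Log2 fold change, AAV-TuD minus AAV-NC (horizontal axis), of the 60 partner genes tested, 1 point per gene, in 6 lists, with the list median as a bar and the median of all genes as a dotted line. The 14 genes called higher (red, named) lie between 0.33 (*Pros1*) and 1.62 (*S100a11*), and no gene at the left was called lower.

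Markers of several other liver cell types were also higher with AAV-TuD, and how they varied with the annexins from liver to liver was not tested. In whole liver, fewer or more cells of a type and less or more RNA per cell cannot be told apart. Of 7 cholangiocyte markers tested, 6 were higher, with a summed level of 89.9 to 128 CPM with AAV-NC and 157 to 196 with AAV-TuD. *Sox9* rose by 0.82 and *Cdh1* by 0.39. *Cdh1* was the largest part of this sum, with means of 81.1 and 106 CPM, while the means of *Krt19*, *Epcam* and *Prom1* were at most 2.76 CPM. Of 15 hepatic stellate cell markers, 11 were higher, with sums of 270 to 353 CPM and 458 to 614, and *Dcn* rose by 0.79 while *Ecm1*, at 0.42, did not pass the test. Of 13 Kupffer cell markers, 8 were higher, with sums of 205 to 277 CPM and 229 to 551, and *Ctss* rose by 0.97 while *Slc40a1* stood at 0.04. Of 6 monocyte and neutrophil markers, 5 were higher, with sums of 28.0 to 43.7 CPM and 47.2 to 111. *Lyz2* rose by 1.34 and *Cybb* by 0.82, while *S100a9*, at 0.32, did not pass the test (adjusted p = 0.684 in edgeR). These 6 were tested of 15 listed, and *S100a8*, *Csf3r*, *Cxcr2* and *Retnlg* were among those not analysed here. Monocytes and neutrophils were not told apart. Among proliferation genes, 5 of 6 were higher, with sums of 5.76 to 17.1 CPM and 15.9 to 66.0, and *Top2a* rose by 2.18 and *Mki67* by 1.79. The shares called higher were 85.7%, 73.3%, 61.5%, 83.3% and 83.3% in this order, against 7.24% of all genes tested. The list medians of the log2 fold change were 1.46, 0.79, 0.84, 1.08 and 1.89 in the same order. Of the cholangiocyte markers 1, and of the monocyte and neutrophil markers 2, passed the filter on low counts only through AAV-TuD livers, and so had to differ.

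Few sinusoidal endothelial and hepatocyte markers were called. Of 14 sinusoidal endothelial markers, 1 was higher, *Maf* (7.14%, against 7.24% of all genes tested). The list median was 0.02, with sums of 535 to 597 CPM with AAV-NC and 556 to 631 with AAV-TuD, and *Ptprb* stood at 0.02. Of 10 hepatocyte markers, 0 were higher and 1 was lower (10%, against 4.33% of all genes tested). The lower marker was *Hnf4a*, a hepatocyte transcription factor that was named after its values were seen, at -0.38 (adjusted p = 0.0150 in edgeR). *Alb* had a log2 fold change of 0.41 (adjusted p = 0.0805 in edgeR) and *Apoa1* of -0.20 (adjusted p = 0.363 in edgeR). For *Alb*, every AAV-TuD liver nevertheless lay above every AAV-NC liver. The summed hepatocyte markers, *Alb* included, stood at 37338 to 43546 CPM with AAV-NC and 45419 to 51629 with AAV-TuD, without overlap. *Alb* was the largest part of this sum, with means of 21096 and 28044 CPM. The median log2 fold change of the list was -0.12, so that the higher sum does not stand for the markers as a set. Of the lymphocyte markers 1 of 2 was higher (50%), *Ptprc*, and *Igkc* stood at 0.09. Of the mesothelial list 2 of 3 were higher (66.7%), *Krt8* and *Krt18*, which hepatocytes and bile duct cells also express. The part of these cell types in the differences of *Anxa2*, *Anxa3* and *Anxa5* was not tested.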

How the data were processed

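Liver RNA of 5 AAV-NC and 6 AAV-TuD mice, 500 ng each, was made into QuantSeq 3′ libraries. The authors used BBDuk for trimming, STAR 2.5.3a (submitters' processing notes) for alignment to GRCm38 and Rsubread for counting. They deposited raw counts of reads for 13669 genes, all of which have 10 or more reads in 5 or more livers. The annotation, the strand setting and the treatment of multi-mapping reads are not given in the sources used here. Groups came from the sample titles, and no sequencing batch is named.

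The 13334 genes that exceeded 10 reads in 5 or more livers were fitted together in edgeR 4.0.16 (quasi-likelihood test, R 4.3.3), with TMM scaling and Benjamini-Hochberg adjustment over all genes tested at 0.05. Log2 CPM used a prior count of 2. Alternatives were DESeq2 1.42.0, other scaling in edgeR (DESeq2 size factors, upper quartile, library size alone, TMM without the *Mup* genes), all deposited genes, edgeR's own filter, limma-voom (limma 3.58.1) with quality weights, each liver left out, and the 3 livers with most *Mup* reads left out together. Seed matches used the longest 3′ UTR in GENCODE M21, and RefSeq gave a promoter window for 6 of the 8 members, not for *Anxa3* and *Anxa6*. The last 500 bases of each transcript were compared with all annotated transcripts (95% identity over at least 50 bases).

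Named are all 8 members, the called genes of each partner list (at most the 4 with the smallest p value in each direction) with its gene of most reads, the 2 marker genes of each list with most reads, and the 5 genes most like *Anxa5* and 2 most like each other member. The members, lists and tests were chosen with earlier results of these data known. Some genes that this rule selects are left out of the text.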

Additional observations from a re-analysis of the deposited data

Results flagged for a closer look

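In 3 of 22 groups of values examined, the highest liver stood apart from the others of its group by Dixon's 95% criterion, the ratio of the gap beside it to the whole range, which chance exceeds in about 1 of 20 groups. *Anxa1* in AAV-NC liver 2 had a ratio of 0.767 (13 reads, against 1 to 4 in the other controls). *Anxa11* in AAV-TuD liver 3 had a ratio of 0.648, at 14.1 CPM within the range of the AAV-NC livers. *Anxa9* in AAV-TuD liver 10 had a ratio of 0.639, at 2.16 CPM.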

How the results depend on the processing

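Of the 7 members other than *Anxa5*, on which the family was picked, *Anxa2* and *Anxa3* were called higher and 0 lower under all 20 alternatives. The log2 fold change of *Anxa2* was 1.06 to 1.43 (adjusted p 1.67e-05 to 0.0127 over edgeR, DESeq2 and limma) and of *Anxa3* 0.82 to 1.21 (0.00510 to 0.0448). *Anxa5* lay between 1.02 and 1.31. *Anxa1* was tested in 15 alternatives, at 0.78 to 1.25 (adjusted p 0.0887 to 0.332), and fell under the filter without AAV-NC liver 2 or AAV-TuD liver 4, 9, 10 or 11. With 7 members left, the median over the members was as low as 0.04. The sign of the smallest differences changed: *Anxa11* was -0.00070 with limma-voom, and with each liver left out *Anxa6* was -0.029 to 0.054, *Anxa7* -0.031 to 0.071 and *Anxa11* -0.095 to 0.062. With library size alone the median of all genes was 0.23, that of the members 0.76, and 71 genes were lower in place of 577, with 0 in place of 1 of the markers. *Anxa4*, *Anxa6*, *Anxa7* and *Anxa11* then stood between 0.25 and 0.30, near that median. Genes lower numbered 337 to 714 with each liver left out, and were fewer by over 1.5 times without AAV-TuD liver 4 (337) or liver 10. The cause was not tested. DESeq2 called 1 partner gene lower, *Xkr8*, in place of 0 (log2 fold change -0.57, adjusted p = 0.0421). With bases 2 to 7, 8 members had a seed match to any of the 6 miRNAs, in place of 0. Each miRNA alone had one in 28.0% to 42.2% of UTRs, and the share of UTRs with a match to any of the 6 was not computed. No paired analysis was possible because the groups share no replicate number.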
